A study of Oryza sativa with 6 samples.

Results

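The oleosins and caleosins, the coat proteins of seed oil bodies, were taken from the Pfam domain annotation of the deposited gene table. A gene was a member if its annotation held PF01277, the oleosin domain, or PF05042, the caleosin domain. This rule uses no expression value, though it was chosen with earlier results of these data known. The family comprised 14 of the 61955 genes in the table, 6 with the oleosin domain and 8 with the caleosin domain. The values were TPM, a transcript abundance that divides the reads of a gene by its length and then scales each sample to the same total, so that levels may be compared between genes within a sample.

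The oil body is the droplet in which seeds store triacylglycerol under a single layer of phospholipid. An oleosin holds a long hydrophobic hairpin that dips into the oil, and its ends lie flat on the surface, which keeps neighbouring oil bodies from fusing. A caleosin is anchored in a similar way but also binds calcium through an EF-hand, and members of this group act as peroxygenases, heme enzymes that pass oxygen from lipid hydroperoxides to other lipids. In cereal grains the oil bodies lie mainly in the embryo and the aleurone, and the embryo builds them while the grain fills.

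The RNA came from rice embryos of a pair of near-isogenic lines at about day 15 after flowering, with 3 samples per line. NIL-D carries the Dapeimi allele of GE, a cytochrome P450 gene whose loss enlarges the embryo, and the labels give its genotype as CMP-/-. NIL-X carries at the same place the segment of the other parent of the cross that gave both lines, has an embryo of common size and is labelled wild type. The lines were derived from that cross by repeated selfing, so each contrast is between a single pair of lines and includes whatever else still differs between them, and both were grown in the same field in 3 plots. The labels name separate samples but do not tie a replicate number to a plot. The p-values refer to the spread between these samples, which the fit adjusts towards a trend over all genes.

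The 6 samples each summed to about 1000000 TPM, and 26270 to 27013 genes were above 0 in NIL-D, against 27224 to 27709 in NIL-X. Of 21500 genes tested, 138 were called between the lines (57 higher and 81 lower in NIL-D), which is 0.642% of them. A gene was tested if its mean TPM was at least 0.5, and called if its adjusted p was below 0.05 and its log2 fold change was at least 1 in either direction. Over all tested genes the log2 fold change had a median of -0.15. Each log2 fold change below is to be read beside this shift, which is repeated for some of them only. NIL-D replicate 3 stood apart, since 561 genes (2.61%) were called without it, so results that depend on it are given both ways. Summed embryo markers (vicilin, 1-Cys peroxiredoxin, EMB-1 and lipid-transfer proteins) came to 74414 to 88631 TPM in NIL-D, against 62159 to 72106 TPM in NIL-X. Within that list, vicilins (37134 to 48784 in NIL-D, 27112 to 35170.13 in NIL-X) and lipid-transfer proteins (25352 to 27405 in NIL-D, 18287 to 18926 in NIL-X) summed higher in NIL-D. EMB-1 summed lower in NIL-D (6104 to 9935 in NIL-D, 13034 to 15259 in NIL-X), and 1-Cys peroxiredoxin overlapped (2306 to 4559 in NIL-D, 3092 to 3726 in NIL-X). Endosperm markers were far from absent in these embryo samples, at 43026 to 43327 TPM in NIL-D, against 42795 to 55079 TPM in NIL-X. Glutelins made up most of that and overlapped, and no marker group summed to 0 in any sample. Starch branching enzyme summed lower in NIL-D (436 to 480 in NIL-D, 566 to 731 in NIL-X). Prolamins (3043 to 6985 in NIL-D, 4925 to 12870 in NIL-X), 19 kDa globulin (467 to 739 in NIL-D, 644 to 1295 in NIL-X) and granule-bound starch synthase 1 (201 to 311 in NIL-D, 218 to 432 in NIL-X) overlapped. The marker sums thus moved with line or sample, and their part in the results below was not tested. In such bulk RNA, fewer cells that express a gene and less of its RNA per cell cannot be told apart.

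The oil body family was among the most abundant mRNA of the embryo, and its total was close in both lines. The 14 genes together took 40891, 42219 and 40196 TPM in NIL-D, against 38842, 41873 and 39446 TPM in NIL-X. The lines overlapped. NIL-D averaged 41102 ± 1028 TPM and NIL-X 40054 ± 1604 TPM (SD, n = 3 each), or 4.11% and 4.01% of all TPM. No test was made on this sum. On a scale where samples were matched by the median ratio of their genes instead, the mean sum was 43411 in NIL-D and 37526 in NIL-X, so the size of the difference rests on how the samples are scaled.

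**Figure D1:**
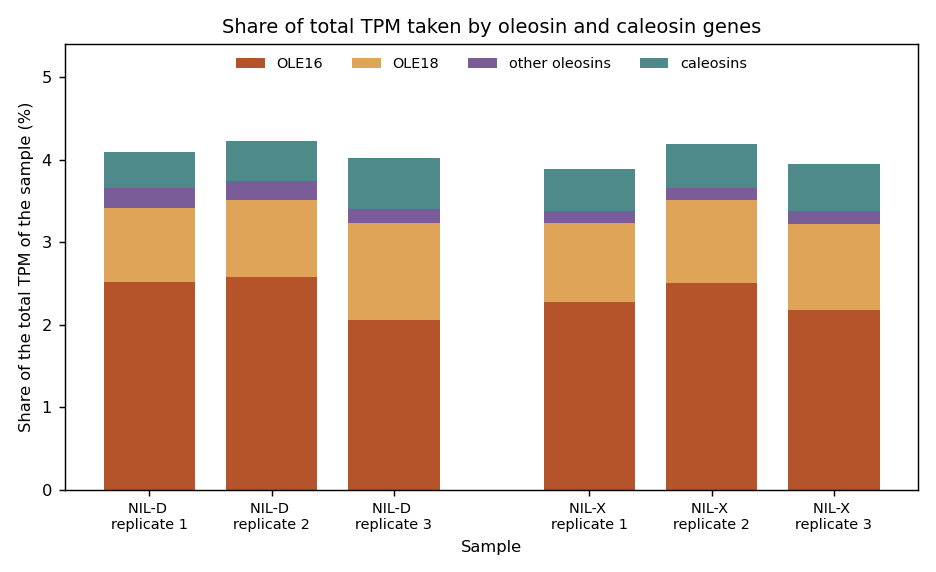
Share of the total TPM of each sample (percent, vertical axis) taken by the 16 kDa oleosin (OLE16), the 18 kDa oleosin (OLE18), the other oleosins and the caleosins, stacked, for the 3 samples of NIL-D on the left and of NIL-X on the right. The stacks reach 4.02% to 4.22% in NIL-D and 3.88% to 4.19% in NIL-X, and the band of other oleosins is 0.175% to 0.238% in NIL-D and 0.142% to 0.161% in NIL-X.

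None of the 11 members that could be tested was called by limma, beside a background of 0.642% over all tested genes. At an unadjusted p below 0.05 there were 2 members, beside 15.6% of all tested genes. The 3 values of a line lay apart from those of the other in 2 members, beside 24.3% of all tested genes. Of these, 1 was higher in NIL-D, where the background in that direction was 4.53%, and 1 was lower in NIL-D, where the background was 19.7%. Each of these counts is of 1 or 2 members only, and nothing is read from them about the family as a whole. The log2 fold changes were positive for 6 members and negative for 5, with a median of 0.03, while 9 were positive after median-ratio rescaling and 7 after quantile normalization. Of the 11, 9 lay above the median of all tested genes.

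A missed threshold does not show that a gene was the same in both lines. The intervals are those of the main fit, and their width depends on its settings as well as on the samples. For OLE16 the SE was 0.43 in the main fit, 0.15 without trend, 0.22 at a mean TPM of at least 5 and 2.16 with no filter. For OLE18 these were 0.32, 0.16, 0.20 and 1.03. In the main fit the whole 95% interval lay within 2-fold in either direction for 5 of the 11 members. For the other 6 members a difference of 2-fold in at least 1 direction was not outside the interval.

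**Figure D2:**
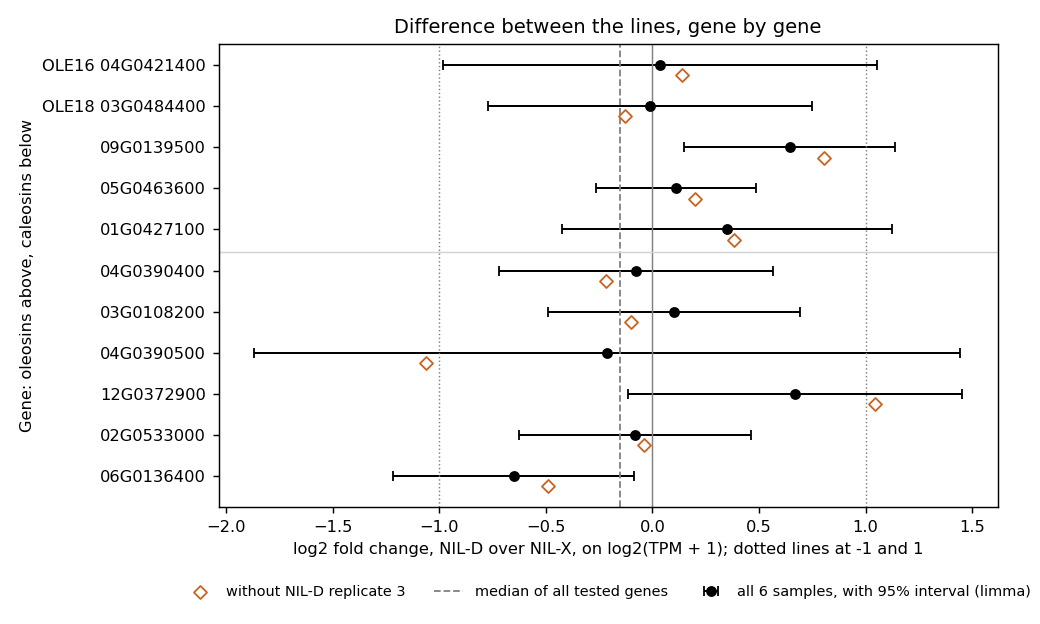
Log2 fold change of NIL-D over NIL-X on the log2(TPM + 1) scale (horizontal axis) for each tested oleosin (above) and caleosin (below). Black points and bars are the limma estimate and its 95% interval from all 6 samples, open diamonds are the estimate without NIL-D replicate 3, and the dashed line marks the median of all tested genes, -0.15. The interval misses 0 for OsZS_09G0139500 and OsZS_06G0136400, and the diamond of OsZS_04G0390500 is far to the left of its point.

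Among the oleosins, 4 of the 5 tested genes had a mean above 100 TPM. The most abundant was OsZS_04G0421400, annotated as the 16 kDa oleosin (OLE16), an isoform long known from rice oil bodies. It ranked between 2 and 5 among all genes of a sample. OLE16 had 25189.5, 25764 and 20547 TPM in NIL-D, against 22698, 25091 and 21783 TPM in NIL-X. The lines overlapped and NIL-D replicate 3 was the lowest of all 6 samples. The log2 fold change was 0.03 (SE 0.43, 95% interval -0.98 to 1.05, limma adjusted p = 0.977), 0.19 above the median of all genes. The direction depended on the scale, since the log2 fold change was 0.21 after median-ratio rescaling but -0.25 after quantile normalization.

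The 18 kDa oleosin (OLE18), OsZS_03G0484400, is the other major isoform of the rice grain, and oil bodies carry both forms on their surface. OLE18 stood between ranks 6 and 8 in every sample. It had 8962, 9304 and 11703 TPM in NIL-D, against 9600.35, 9970.39 and 10408 TPM in NIL-X. The NIL-X values fell inside the range of NIL-D, and NIL-D averaged 9989.6 ± 1494 TPM while NIL-X averaged 9993 ± 404 TPM (SD, n = 3 each). Its log2 fold change was -0.01 (SE 0.32, 95% interval -0.77 to 0.75, limma adjusted p = 0.991), and it was 0.16 and 0.23 after median-ratio rescaling and quantile normalization, which turns its direction.

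OsZS_09G0139500 had the largest log2 fold change among the 5 tested oleosins chosen by Pfam. It is annotated as an oleosin 16 kDa-like protein, and its closest Swiss-Prot entry is the maize oleosin Zm-I. Its levels were 1777, 1722 and 1256 TPM in NIL-D, against 941, 961 and 1114 TPM in NIL-X. All 3 NIL-D samples were above all 3 NIL-X samples, with NIL-D replicate 3 the nearest to NIL-X, and the gene ranked 49 to 81 in NIL-D and 92 to 101 in NIL-X. The mean was 1.56-fold higher in NIL-D on the fitted scale (95% interval 1.11 to 2.20), or 0.64 in log2 (SE 0.21) and 0.79 above the median of all genes. With an unadjusted p of 0.0184 and a limma adjusted p of 0.241, this did not pass the test. Without NIL-D replicate 3 the log2 fold change was 0.80 and the adjusted p 0.0383, still short of the fold needed for a call. The direction held in all 14 other settings tried, at 0.55 to 0.88, with adjusted p between 0.0383 and 0.599. With no filter, a minimum of 5 TPM, no trend or the replicate block, the log2 fold change cannot move, so only the adjusted p could.

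OsZS_05G0463600, a further oleosin 16 kDa-like gene whose closest Swiss-Prot entry is Bn-V of rape, was the fourth oleosin by level. It had 599, 577 and 487 TPM in NIL-D, against 479, 569.72 and 492 TPM in NIL-X. The lines overlapped, and the log2 fold change was 0.11 (SE 0.16, 95% interval -0.27 to 0.48, limma adjusted p = 0.762). This was the narrowest interval among the 11 tested members.

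OsZS_01G0427100, annotated as a 14.9 kDa oleosin, was expressed at a low level. It had 4.36, 2.67 and 3.13 TPM in NIL-D, against 1.25, 4.01 and 2.48 TPM in NIL-X. The lines overlapped, with a log2 fold change of 0.35 (SE 0.32, 95% interval -0.43 to 1.13, limma adjusted p = 0.621). Without NIL-X replicate 1 the log2 fold change was 0.053, without NIL-X replicate 2 it was 0.63 and without NIL-D replicate 1 it was 0.20. The remaining gene with the oleosin domain, OsZS_05G0147900, was listed at 0 in all 6 samples and is otherwise annotated as a leucine-rich repeat receptor-like kinase, so only its Pfam hit places it here.

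**Figure D3:**
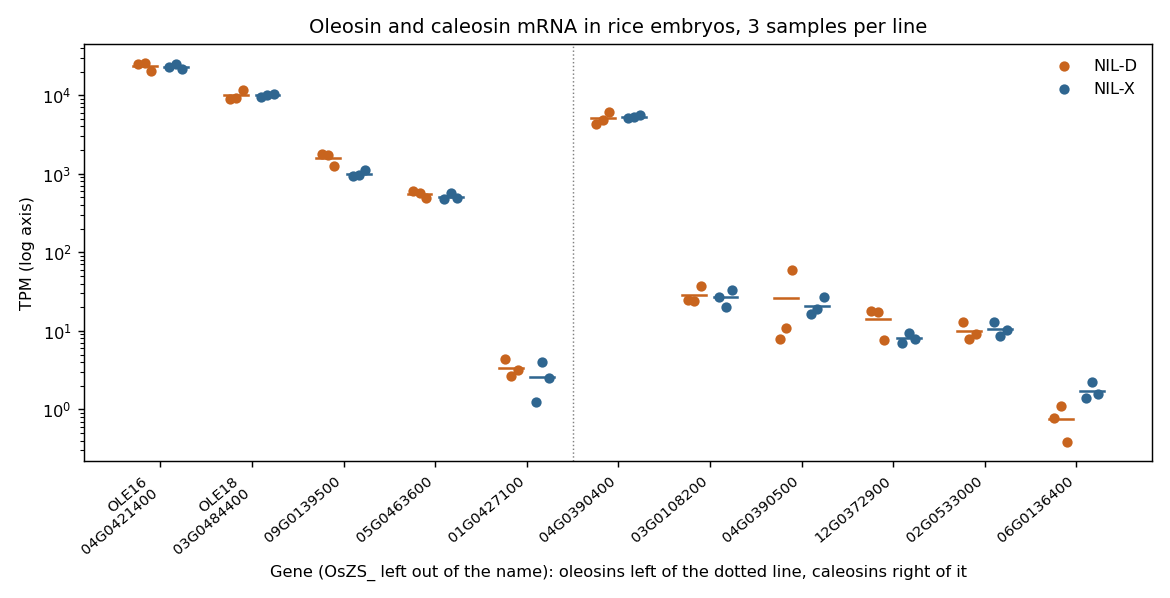
TPM of the 11 tested members (log axis) in each sample, oleosins left and caleosins right of the dotted line, with NIL-D left of NIL-X for each gene. Points are samples and short lines are means of the 3 samples. The genes span from 0.753 TPM (OsZS_06G0136400, mean of NIL-D) to 23834 TPM (OLE16, mean of NIL-D), and the lines separate for OsZS_09G0139500 and OsZS_06G0136400.

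In contrast to the oleosins, the caleosin mRNA was almost all from a single gene. Of the 6 tested caleosins, 1 had a mean above 100 TPM, and 7 of all 8 carry the peroxygenase term of the KEGG annotation. OsZS_04G0390400, annotated as a peroxygenase and closest in Swiss-Prot to the sesame caleosin SOP1, ranked 12 to 16 in every sample. It had 4295, 4789 and 6086 TPM in NIL-D, against 5058, 5218 and 5567 TPM in NIL-X. The NIL-X values fell inside the range of NIL-D, whose replicate 3 was highest. The log2 fold change was -0.08 (SE 0.27, 95% interval -0.72 to 0.56, limma adjusted p = 0.910), and 0.10 after median-ratio rescaling, which turns its direction.

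The next gene number on chromosome 4, OsZS_04G0390500, is also annotated as a peroxygenase and has the same domain. How alike the sequences of these genes are, and whether the counting could split reads between them, was not tested. It had 7.83, 10.9 and 58.8 TPM in NIL-D, against 16.4, 18.9 and 27.2 TPM in NIL-X. NIL-D thus held the highest sample and also the 2 lowest. With all samples the log2 fold change was -0.21 (SE 0.69, 95% interval -1.87 to 1.44, limma adjusted p = 0.901). Without NIL-D replicate 3 it was -1.06, or 2.09-fold lower in NIL-D, and the adjusted p was 0.0757. Without NIL-D replicate 1 it was 0.32 and without NIL-D replicate 2 it was 0.10, so both the size and the direction depended on single samples.

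OsZS_03G0108200, annotated as peroxygenase-like, had 24.9, 23.9 and 37.6 TPM in NIL-D, against 27.0, 19.9 and 33.2 TPM in NIL-X. The lines overlapped, and the log2 fold change was 0.10 (SE 0.25, 95% interval -0.49 to 0.69, limma adjusted p = 0.862), with the sign turned, at -0.10, without NIL-D replicate 3. OsZS_02G0533000, closest in Swiss-Prot to a probable peroxygenase 5, had 12.9, 7.91 and 9.17 TPM in NIL-D, against 13, 8.49 and 10.2 TPM in NIL-X. Both lines covered much the same range, with a log2 fold change of -0.08 (95% interval -0.63 to 0.46, limma adjusted p = 0.884) that was 0.075 after median-ratio rescaling and 0.092 after quantile normalization.

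OsZS_12G0372900 has the caleosin domain among several EF-hand hits and is named calmodulin-like protein 5, a calcium sensor type, so its place in the family rests on the Pfam hit. It had 17.98, 17.3 and 7.55 TPM in NIL-D, against 6.95, 9.51 and 7.81 TPM in NIL-X. Replicates 1 and 2 of NIL-D were above all NIL-X samples, while replicate 3 lay among them. The log2 fold change was 0.67 (SE 0.33, 95% interval -0.11 to 1.45, limma adjusted p = 0.373). Without NIL-D replicate 3 it was 1.04 with an adjusted p of 0.0329, the only call of a member in any setting tried, beside 2.61% of all genes called under that setting.

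OsZS_06G0136400, closest to a probable peroxygenase 4, was the least abundant member tested. It had 0.77, 1.11 and 0.38 TPM in NIL-D, against 1.4, 2.21 and 1.59 TPM in NIL-X. All 3 NIL-D samples were below all NIL-X samples. Its log2 fold change on the log2(TPM + 1) scale was -0.65 (SE 0.24, 95% interval -1.22 to -0.09), and the added 1 makes this smaller than the change in TPM at such a level. With an unadjusted p of 0.0297 and a limma adjusted p of 0.276, it did not pass the test. The remaining caleosins, OsZS_06G0136300 and OsZS_02G0532900, were at or near 0, since the first was listed at 0 in every sample and the second reached 0.04 TPM in NIL-X replicate 2 alone. Each carries the gene number next to that of an expressed caleosin, and with the chromosome 4 genes there were 3 such neighbouring pairs, and in each pair a single gene held nearly all of the TPM.

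The order of levels was the same in both lines from OLE16 down through OLE18, OsZS_04G0390400, OsZS_09G0139500 and OsZS_05G0463600, and no sample of a gene in this series reached the range of the next. OsZS_03G0108200 and OsZS_04G0390500 followed and overlapped in both lines. Below them OsZS_12G0372900 and OsZS_02G0533000 also overlapped in both lines and stood in another order by their means. OsZS_01G0427100 and OsZS_06G0136400 came last, apart in NIL-D and overlapping in NIL-X. OLE16, OLE18 and OsZS_04G0390400 alone took 94.0% to 95.4% of the family's TPM in NIL-D, against 95.7% to 96.2% in NIL-X.

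Proportions between genes of a sample do not change when that sample is rescaled by a single factor. They are given here as a description, with no test. OLE16 exceeded OLE18 by 2.81, 2.77 and 1.76 times in NIL-D, against 2.36, 2.52 and 2.09 times in NIL-X. The lines overlapped, and replicate 3 had the lowest ratio in each of them. OLE18 and the caleosin OsZS_04G0390400 stayed in nearly fixed proportion, at 2.09, 1.94 and 1.92 in NIL-D and 1.90, 1.91 and 1.87 in NIL-X, although each of these genes was highest in replicate 3 of its line. These ratios did not overlap between the lines, but by a narrow margin, 1.92 in NIL-D replicate 3 against 1.91 in NIL-X replicate 2.

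OsZS_09G0139500 amounted to 7.05%, 6.68% and 6.11% of the OLE16 level in NIL-D, against 4.15%, 3.83% and 5.11% in NIL-X. Set against the related OsZS_05G0463600, it was 2.97, 2.99 and 2.58 times as abundant in NIL-D and 1.97, 1.69 and 2.27 times in NIL-X. By either measure every NIL-D sample was above every NIL-X sample, NIL-D replicate 3 included. These ratios share the OsZS_09G0139500 values with the comparison above, so they are a description of the same difference and were not tested.

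**Figure D4:**
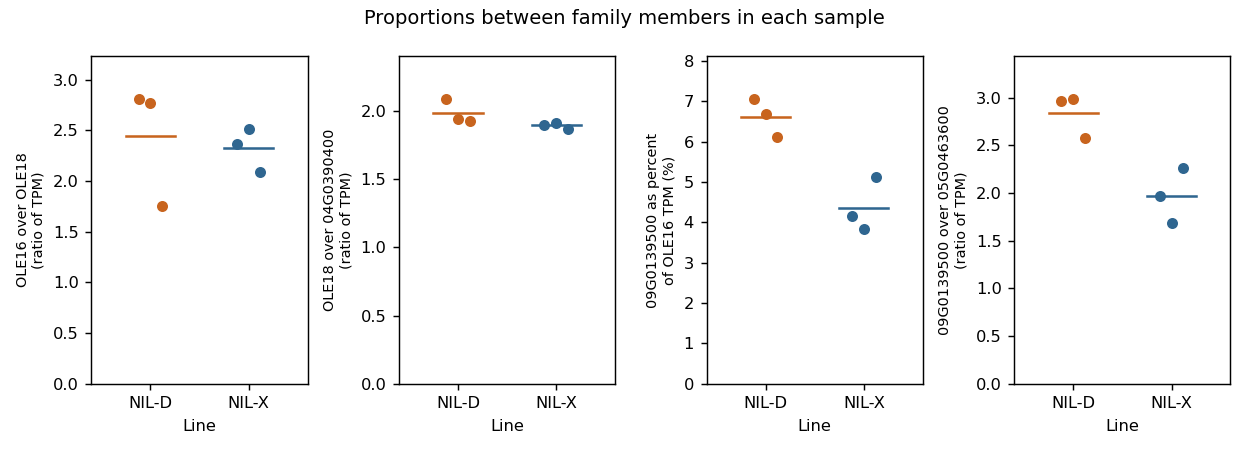
Proportions between members in each sample (vertical axes, from 0), with NIL-D left of NIL-X in each panel. Points are samples and lines are means of 3 samples. OLE16 over OLE18 spans 1.76 to 2.81 in NIL-D and 2.09 to 2.52 in NIL-X, while OsZS_09G0139500 relative to OLE16 is 6.11% to 7.05% in NIL-D and 3.83% to 5.11% in NIL-X.

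The spread within a line was also described. The coefficient of variation was larger in NIL-D for 10 of the 11 tested members, as for OLE18 (15.0% in NIL-D, 4.05% in NIL-X) and OsZS_04G0390400 (18.3% in NIL-D, 4.93% in NIL-X). This was also so for 69.4% of all tested genes with a value in both lines. NIL-D replicate 3 was the highest NIL-D sample for 4 members and the lowest for 5, beside 30.7% and 53.4% of all tested genes. The labels do not tie replicate numbers to plots, so the replicate 3 samples of the lines need not belong together. In both lines at once, replicate 3 was highest for OLE18, OsZS_04G0390400, OsZS_04G0390500 and OsZS_03G0108200, that is for 4 of 11 members beside 12.6% of all tested genes. It was lowest in both lines for OLE16 alone, beside 25.3% of all tested genes. Thus OLE16 and the caleosin OsZS_04G0390400 stood at opposite ends in replicate 3, and the oleosin total exceeded the caleosin total by 8.38, 7.70 and 5.48 times in NIL-D and by 6.58, 6.93 and 5.98 times in NIL-X.

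The other genes of the oil body and of triacylglycerol turnover were gathered by annotation text and Pfam, and of 40 such genes 32 could be tested. None was called by limma, 1 had an unadjusted p below 0.05, and 4 did not overlap between the lines (2 higher and 2 lower in NIL-D). Over all tested genes these shares were 0.642% called, 15.6% at that p and 24.3% with no overlap (4.53% higher and 19.7% lower in NIL-D). The log2 fold changes were positive for 8 and negative for 24, with a median of -0.16 beside -0.15 over all tested genes. After median-ratio rescaling 16 were positive and 16 negative, and after quantile normalization 10 and 22, so the count by sign depends on the scale.

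Steroleosin, a sterol dehydrogenase anchored in the oil body like the other coat proteins, was best represented by OsZS_12G0255400. It had 657, 802 and 1062 TPM in NIL-D, against 995, 1079.68 and 824 TPM in NIL-X, with a log2 fold change of -0.22 (limma adjusted p = 0.662). The most abundant lipid droplet protein of the rubber elongation factor type, OsZS_07G0471800, had 1393, 1544 and 2119 TPM in NIL-D, against 1829, 1686 and 2198 TPM in NIL-X (log2 fold change -0.19, adjusted p = 0.722). Both lines overlapped for each of these coat genes. For OsZS_12G0045500, a seipin that helps oil bodies form at the endoplasmic reticulum, the levels were 23.7, 25.04 and 22.5 TPM in NIL-D, against 22.3, 22.3 and 15.8 TPM in NIL-X. These did not overlap, by a narrow margin, with a log2 fold change of 0.24 (adjusted p = 0.507).

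The acyltransferases, which make triacylglycerol from diacylglycerol, gave negative values for all 6 tested genes, between -0.76 and -0.03, but for 3 after median-ratio rescaling and 5 after quantile normalization, and none was called. The most abundant, the DGAT2-type OsZS_06G0204000, had 411, 441 and 480.46 TPM in NIL-D, against 374, 524 and 476 TPM in NIL-X, which overlapped (log2 fold change -0.03, limma adjusted p = 0.941). OsZS_06G0318100, a DGAT1-type gene, was the 1 gene of the list with an unadjusted p below 0.05. It had 40.4, 39.1 and 51.4 TPM in NIL-D, against 56.6, 57.3 and 56.5 TPM in NIL-X, all lower in NIL-D, with a log2 fold change of -0.38 and an adjusted p of 0.274.

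Of the lipases, which release fatty acids from stored oil, OsZS_10G0106500, closest to SUGAR-DEPENDENT1 of Arabidopsis, had 55.1, 54.7 and 38.3 TPM in NIL-D, against 60.7, 69.7 and 53.8 TPM in NIL-X (log2 fold change -0.32, limma adjusted p = 0.436). The lines overlapped for it only through NIL-X replicate 3. MSTRG.19822, closest to PUX10, an adaptor that draws proteins off the oil body for degradation, had 17.4, 16.4 and 23.6 TPM in NIL-D, against 20.3, 18.4 and 25.98 TPM in NIL-X, with an adjusted p of 0.705. Without NIL-D replicate 3, the acyltransferase gene OsZS_02G0511700 (log2 fold change -1.51, adjusted p = 0.0316) and the lipase gene OsZS_08G0444800 (-2.01, adjusted p = 0.0318) were called lower in NIL-D. These were 2 of the 32 tested genes of the list, beside 2.61% of all tested genes called under that setting. With all 6 samples the adjusted p values of these 2 genes were 0.567 and 0.535, as NIL-D replicate 3 had 35.3 and 15.97 TPM of them, above every other sample.

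Of the regulators of seed maturation, OsZS_01G0659800, the VP1 factor that acts with abscisic acid, had 171, 190.22 and 214 TPM in NIL-D, against 199, 199.68 and 208 TPM in NIL-X (log2 fold change -0.08, limma adjusted p = 0.781). OsZS_01G0613500, an ABI5-type bZIP factor, had 46.8, 47.0 and 60.1 TPM in NIL-D, against 48.1, 54.6 and 46.7 TPM in NIL-X, with an adjusted p of 0.925. OsZS_11G0026600, closest to WRINKLED1, an activator of fatty acid synthesis in Arabidopsis, had 39.6, 33.1 and 11.5 TPM in NIL-D, against 28.2, 39.1 and 21.5 TPM in NIL-X (adjusted p = 0.857). The lines overlapped for each of them. The LEC1-type gene OsZS_02G0522100, of a class that sets embryo identity in Arabidopsis, had 2.43, 4.65 and 1.21 TPM in NIL-D, against 3.12, 3.75 and 4.89 TPM in NIL-X, which also overlapped (adjusted p = 0.547).

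**Figure D5:**
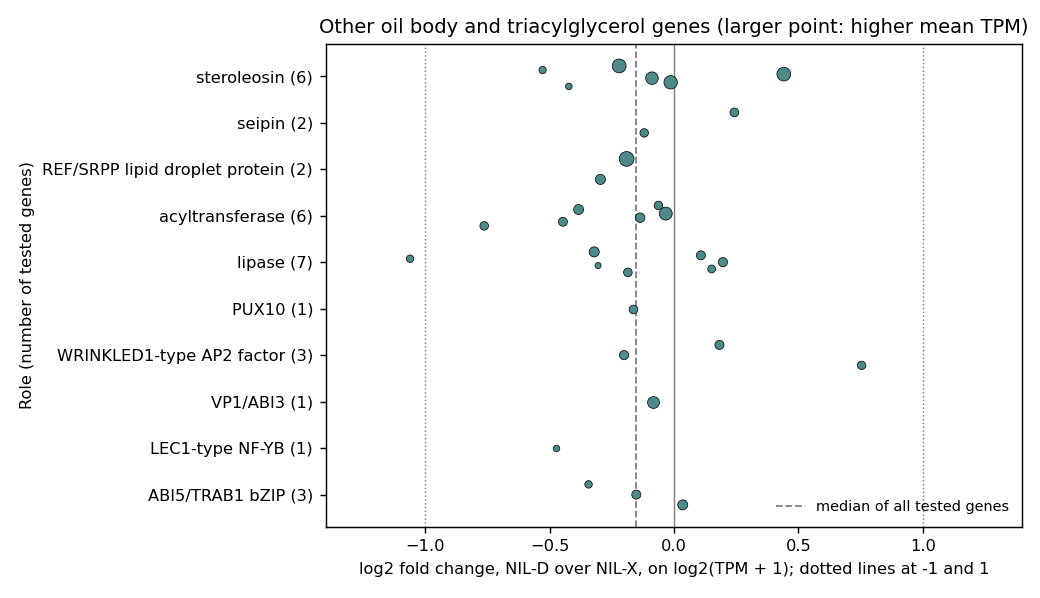
Log2 fold change of NIL-D over NIL-X on the log2(TPM + 1) scale (horizontal axis) for the 32 tested genes of the oil body and triacylglycerol list, by role, with the number of tested genes of each role in brackets. Each point is a gene, larger points have a higher mean TPM, and the dashed line marks the median of all tested genes, -0.15. Values lie between -1.06 and 0.75, and none was called.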

How the data were processed

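Embryo RNA of NIL-D and NIL-X was sequenced in 3 samples per line. According to the methods, the authors trimmed reads with SeqPrep and Sickle, aligned them by TopHat against the ZS97RS3 genome (RIGW3.0) with up to 2 mismatches, used Cufflinks and estimated expression with RSEM. The submitters' processing notes name Bowtie 0.12.2 and the build mm8, which is a mouse build and was not used for anything here. The authors deposited TPM per gene with 2 decimals, although the methods name FPKM, together with the mean of each line, which was not used. Read counts cannot be had from TPM, so depth is unknown here and there are no counting intervals.

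The lines were compared by limma 3.58.1 (R 4.3.3), using lmFit and trended eBayes, after log2(TPM + 1). Genes whose 6 samples averaged under 0.5 TPM were left out. P-values were adjusted by Benjamini-Hochberg over all 21500 tested genes, and intervals are at 95%. A fold change on this scale understates the change of low genes. The script was tested on simulated data. Other tables were made with pandas 2.3.3. Alternatives were median-ratio rescaling, a pseudocount of 0.1, no filter, a minimum of 5 TPM, no trend, quantile normalization, the replicate number as a block, adjusted p alone, and leaving out each sample. The fit without replicate 3 of both lines was added after seeing the data.

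The members and lists were chosen with earlier results of these data known, and the text patterns of the oil list were tightened after their hits had been seen. No gene matched LDIP, CGI-58 or FUSCA3. Every member with a mean TPM of at least 0.5 was named, and from the oil list the called genes and the most abundant gene of each role. Genes named beyond this rule were chosen after their values were seen. In the markers, 37 of 59 embryo genes and 35 of 41 endosperm genes were tested, and 0 were called by limma. Chlorophyll a-b binding genes summed to 4.34 to 5.53 TPM in NIL-D and 9.65 to 11.2 TPM in NIL-X. Of the 14 members, 8 matched a RefSeq symbol by protein accession (ASM3414082v1, a japonica assembly). No sequences or coordinates are given, since no table of this build was used. The number that the study gives to GE is annotated as a sulfotransferase in the table, so GE itself was not checked.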

Additional observations from a re-analysis of the deposited data

How the results depend on the processing

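The number of called genes was 138 with all samples, 57 at a mean TPM of at least 5, and 36 to 561 when samples were left out, the highest without NIL-D replicate 3. The replicate block gave 43 called genes and no called member or oil gene. Deviations of equally numbered samples correlated at 0.02, 0.20 and 0.20, and those of unequally numbered samples at -0.23 to 0.06. The labels do not tie these numbers to plots, and the main fit did not pair the samples. Whether samples of the same number belong together was not tested. Leaving out samples gave 0 to 1 called members and 0 to 2 called oil genes, with 0 under every other setting for both. Median-ratio rescaling put the median of all genes at -0.0054 (quantile normalization at -0.0080), and the family sum at 43410.6 in NIL-D and 37525.8 in NIL-X. Of 152 member values under other settings, 132 kept direction and side of the threshold, 19 changed direction and 1 became a call. No filter, a minimum of 5 TPM, no trend and the replicate block leave the log2 fold change as it is, so direction could not change under these. Direction turned for OsZS_02G0533000 (0.075 by median ratio, 0.092 by quantile, -0.26 to 0.065 leaving out samples), OLE18, OsZS_03G0484400 (0.16, 0.23, and -0.13 to 0.063), OsZS_04G0390400 (0.096 by median ratio, -0.22 to 0.033 leaving out samples) and OLE16, OsZS_04G0421400 (-0.25 by quantile, -0.025 to 0.14 leaving out samples). Leaving out samples alone turned OsZS_03G0108200 (-0.10 to 0.27) and OsZS_04G0390500 (-1.06 to 0.32), and the cause was not tested. The filter at 5 removed OsZS_01G0427100 and OsZS_06G0136400, so these have no value there. The depth is unknown. With 3 samples per line, the 95% interval of the main fit lay within 2-fold in either direction for only 5 of the 11 tested members.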

Other observations

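A gene outside the Pfam rule is also annotated as an oleosin. OsZS_06G0225100, 1611 bp long, has an oleosin entry in its orthologous group and a gene ontology term for seed oil body biogenesis but no Pfam hit, and it was chosen after its values were seen. It had 159, 122 and 103 TPM in NIL-D, against 55.1, 67.1 and 64.9 TPM in NIL-X. Every NIL-D sample was thus above every NIL-X sample, as for 4.53% of all tested genes. The log2 fold change was 1.01 (SE 0.18, 95% interval 0.57 to 1.45), with an unadjusted p of 0.00111 and a limma adjusted p of 0.0855, which did not pass the test. The median over all tested genes was -0.15. With no filter, a minimum of 5 TPM, no trend or the replicate block, the log2 fold change of OsZS_06G0225100 cannot move. Over all 14 other settings, these included, it was 0.84 to 1.18 with adjusted p between 0.0279 and 0.348. It was called in 2 of them (median-ratio rescaling, adjusted p = 0.0460, and without NIL-D replicate 3, adjusted p = 0.0279). Under the first, 137 of 21500 genes were called, and under the second 2.61%.

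Of the WRINKLED1-type factors, OsZS_01G0571500 had 26.7, 16.6 and 15.9 TPM in NIL-D, against 6.54, 14.9 and 13.4 TPM in NIL-X. Every NIL-D sample was above every NIL-X sample, as for 4.53% of all tested genes. With a log2 fold change of 0.75 and a limma adjusted p of 0.339 the gene did not pass the test. The lines overlapped for the other tested genes of this type, OsZS_11G0026600 (log2 fold change -0.20) and OsZS_12G0024400 (0.18).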
